A study of Mus musculus with 2 samples.

Results

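The 10 genes described here encode the protein components of the lipoproteins that the liver secretes or remodels: Apoa1, Apoa2, Apoa4, Apoa5, Apob, Apoc1, Apoc2, Apoc3, Apoc4 and Apoe. They were chosen by symbol. All 10 were found in both libraries, as 10 of the 69691 entries of the gene tables and as 35 of the 129984 entries of the transcript tables. The material was liver of 1 adult female C57BL/6J mouse aged 10 weeks, from which RNA was extracted with a kit for lipid-rich tissue and sequenced as polyA mRNA. Library 2 is the second technical replicate, labelled as performed in May 2015, and library 1 is the original one. Both come from the same animal, so there is 1 group, no treatment and no biological replicate. By these labels a difference between the libraries is technical. The piece of tissue, the date, the handling and the library itself cannot be told apart.

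Apolipoproteins hold the lipid of plasma lipoproteins in solution and direct its fate. ApoB is the large backbone of very-low-density lipoprotein and stays with its particle, whereas apoA-I and apoA-II form the scaffold of high-density lipoprotein. ApoE is the ligand by which remnant particles are taken up through the LDL receptor family, and the small exchangeable apoC proteins and apoA-V set how fast lipoprotein lipase clears triglyceride. The liver is the main source of these proteins, and the intestine adds apoA-I, apoA-IV and apoB.

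The family held 7.01% of all TPM, an abundance corrected for transcript length and depth, in library 2 and 0.822% in library 1, with a mean of 3.92% ± 4.38 (SD, n = 2 technical libraries). Counting only nuclear protein-coding genes, its share was 9.51% in library 2 and 2.19% in library 1. Of the expected counts, which are estimated reads per gene, it held 3.20% in library 2 (exact 95% binomial interval 3.19 to 3.21) and 1.23% in library 1 (1.22 to 1.23). The family's share was thus higher in library 2 on each of these scales. Without Apob, the other 9 genes held 6.87% in library 2 and 0.631% in library 1, again of all TPM. The library totals were 19525500 expected counts in library 2 and 23309905 in library 1. Mitochondrial transcripts made up 14.9% of all TPM in library 2, against 40.7% in library 1, and the part of this difference in the family's share was not tested, although the share of nuclear protein-coding TPM leaves the mitochondrial genes out.

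**Figure D1:**
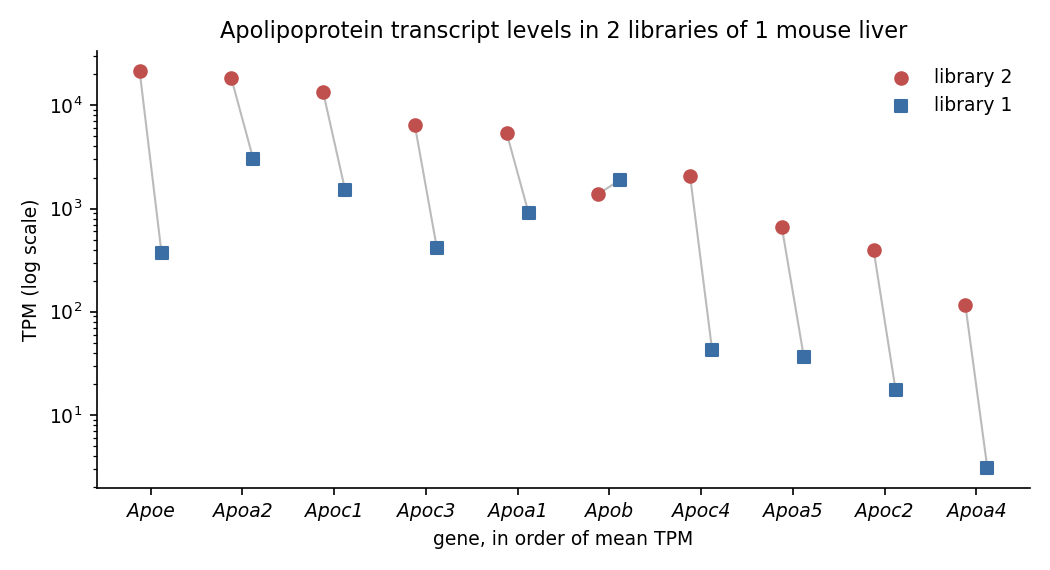
TPM of each apolipoprotein gene on a log axis, with library 2 as circles on the left and library 1 as squares on the right of each gene. Apob is the one gene that is higher in library 1, at 1383 TPM in library 2 and 1909 TPM in library 1.

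Apob, which gives each very-low-density particle its backbone, was the longest member and, as a ratio, the one whose TPM differed least between the libraries. It had 1383 TPM in library 2 and 1909 TPM in library 1 (mean 1646 ± 372, SD, n = 2), from 101989 expected counts in library 2 and 230777 in library 1. In library 1 it gave the most counts of the family and was second only to Apoa2 by TPM. In library 2 it was seventh of the 10 by TPM. It made up 1.97% of the family's TPM in library 2 and 23.2% in library 1.

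Among the high-density lipoprotein scaffolds, Apoa2 exceeded Apoa1 in both libraries. Apoa2 had 18343 TPM in library 2 and 3002 TPM in library 1 (10673 ± 10848, SD, n = 2). Apoa1, which also activates the cholesterol-esterifying enzyme LCAT, had 5424 TPM in library 2 and 906 TPM in library 1 (3165 ± 3194). Both scaffolds were several-fold higher in library 2. Apoa4, an exchangeable apolipoprotein made mostly by the intestine, was the lowest member in both libraries, with 116 TPM in library 2 and 3.06 TPM in library 1 (59.8 ± 80.2).

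Apoe had the widest gap of the family by TPM. It stood at 21738 TPM in library 2, the second-highest nuclear protein-coding gene there, and at 367 TPM in library 1, where it was number 139 (11052 ± 15111, SD, n = 2). The ratio of Apoe to Apob TPM was 15.7 in library 2 and 0.192 in library 1, so that the order of these 2 ligands of the LDL receptor turned round between libraries of the same liver.

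The members that act on lipoprotein lipase and remnant clearance ranged widely in level. Apoc1, which slows clearance of remnants, had 13547 TPM in library 2 and 1517 TPM in library 1 (7532 ± 8507, SD, n = 2). Apoc3, an inhibitor of triglyceride clearance, had 6430 TPM in library 2 and 416 TPM in library 1 (3423 ± 4252). These inhibitors were far more abundant than the activators. Apoc2, the obligatory cofactor of lipoprotein lipase, had 398 TPM in library 2 and 17.4 TPM in library 1 (208 ± 269). Apoa5, which promotes lipolysis, had 659 TPM in library 2 and 36.5 TPM in library 1 (348 ± 440). Apoc4, a small apolipoprotein of very-low-density lipoprotein, had 2064 TPM in library 2 and 42.6 TPM in library 1 (1053 ± 1429).

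By mean TPM the order was Apoe, Apoa2, Apoc1, Apoc3, Apoa1, Apob, Apoc4, Apoa5, Apoc2 and Apoa4. None of the 9 neighbouring pairs in this order differed beyond the spread between the libraries. Apoc1, Apoc4, Apoa5, Apoc2 and Apoa4 held the same family rank in library 1 as by the mean, and 8 of 10 did in library 2. Within a library the order was better resolved: by the deposited intervals around the posterior mean TPM, 9 of 9 neighbouring pairs did not overlap in library 2 and 8 of 9 did not in library 1. The pair that overlapped in library 1 was Apoc4, with an interval of 36.4 to 46.1 TPM, and Apoa5, with 33.5 to 36.8 TPM. The highest member exceeded the lowest by 187-fold in library 2 and by 981-fold in library 1.

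To compare the libraries gene by gene, expected counts were scaled with TMM, a method that assumes most genes do not differ, and a gene was called past the fold where its log2 fold, library 2 over library 1, was at least 1 in size. Under this rule 9 members were higher and 1, Apob, was lower. The background was large: of 12728 tested genes, 33.0% were higher and 24.0% lower by the same rule. The median log2 fold was 3.15 over the 10 members and 0.04 over all tested genes. With 1 library on each side no p-value can be computed, and the 95% intervals given below cover counting error only.

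Apoc4 had the highest log2 fold, 4.69 (95% interval 4.52 to 4.87), from 8825 counts in library 2 and 273 in library 1. Apoa4 followed with 4.35 (4.09 to 4.64), from 2924 counts in library 2 and 114 in library 1. Apoe had 4.27 (4.24 to 4.30), from 242358 counts in library 2 and 10023 in library 1. The intervals of Apoa4 and Apoe overlapped each other, while that of Apoc4 overlapped only Apoa4's. The log2 fold was 3.58 (3.36 to 3.81) for Apoc2, 3.28 (3.21 to 3.35) for Apoa5 and 3.02 (2.97 to 3.07) for Apoc3. Among the more abundant small members it was 2.36 (2.33 to 2.39) for Apoa1, 2.25 (2.22 to 2.29) for Apoc1 and 1.84 (1.82 to 1.86) for Apoa2. Apob stood apart at -1.50 (-1.51 to -1.49).

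The direction held for the 9 higher members under every scaling tried. Scaling by the total count, which moved the log2 fold of each member up by 0.58, left 9 members higher and none lower, against 42.1% and 7.73% of all tested genes. By the ratio of TPM the count was again 9 higher and none lower, against 46.4% and 2.65%, and with DESeq2 size factors it was 9 and 1, against 32.6% and 24.6%. Apob had -0.92 by total count and -0.47 by the ratio of TPM, so Apob was lower in library 2 throughout but, among the scalings, past the fold only under TMM (with or without mitochondrial genes) and DESeq2 size factors. For Apoe the fold in scaled counts was 19.3 and the TPM ratio 59.2. Besides the scaling, TPM divides by the effective length of the gene, which for Apoe was 723 bases in library 2 and 1198 bases in library 1.

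**Figure D2:**
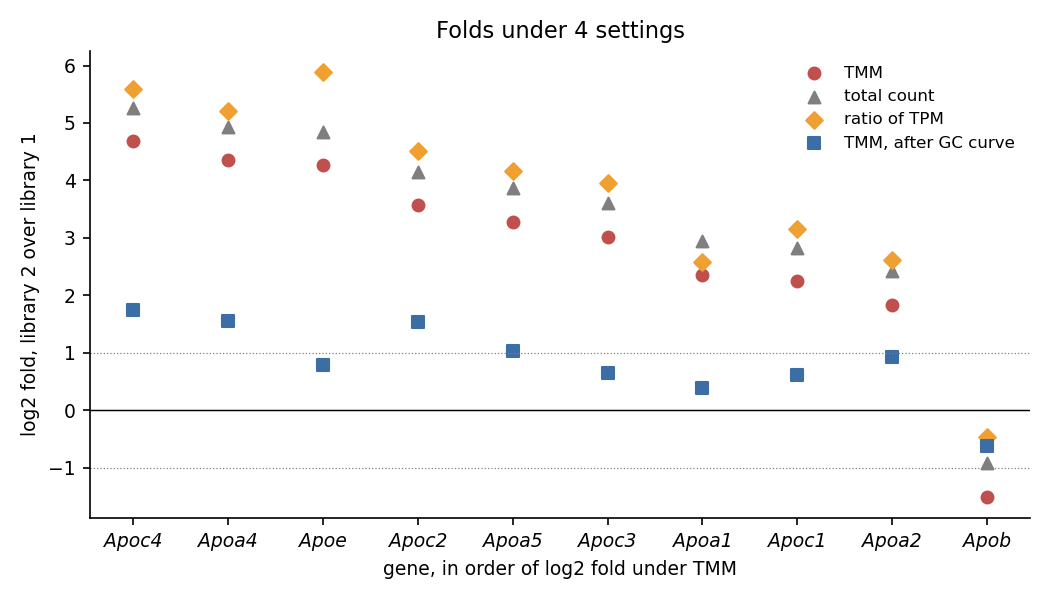
Log2 fold of each member, library 2 over library 1, under TMM scaling, total-count scaling, the ratio of TPM, and TMM after subtraction of the curve against GC content; dotted lines mark 1 and -1. Under the first 3 settings 9 members lie above 1, and after the curve 4 do.

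The size of the difference followed base composition. Mean GC content of the annotated transcripts was 45.4% for Apob and between 52.7% (Apoa2) and 59.7% (Apoe) for the other members, beside a median of 50.2% over 12679 tested nuclear genes. Across the 10 members the log2 fold and GC content had a Pearson r of 0.968 and a Spearman rho of 0.915, and without Apob an r of 0.881 and a rho of 0.883 over 9 genes. These correlations describe genes measured in the same 2 libraries and carry no p-value. All tested nuclear genes showed the same course, with r = 0.817 and rho = 0.867. Their median log2 fold was -0.52 at 45 to 50% GC, the class of Apob by its mean GC, and 2.57 at 55 to 60% GC, the class of 7 members. The full-length transcript Apob-202 alone had 43.5% GC. That value lies in the class of 40 to 45% GC, where the median log2 fold was -1.26. In the class of 55 to 60% GC, 87.1% of genes were past the fold upwards.

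**Figure D3:**
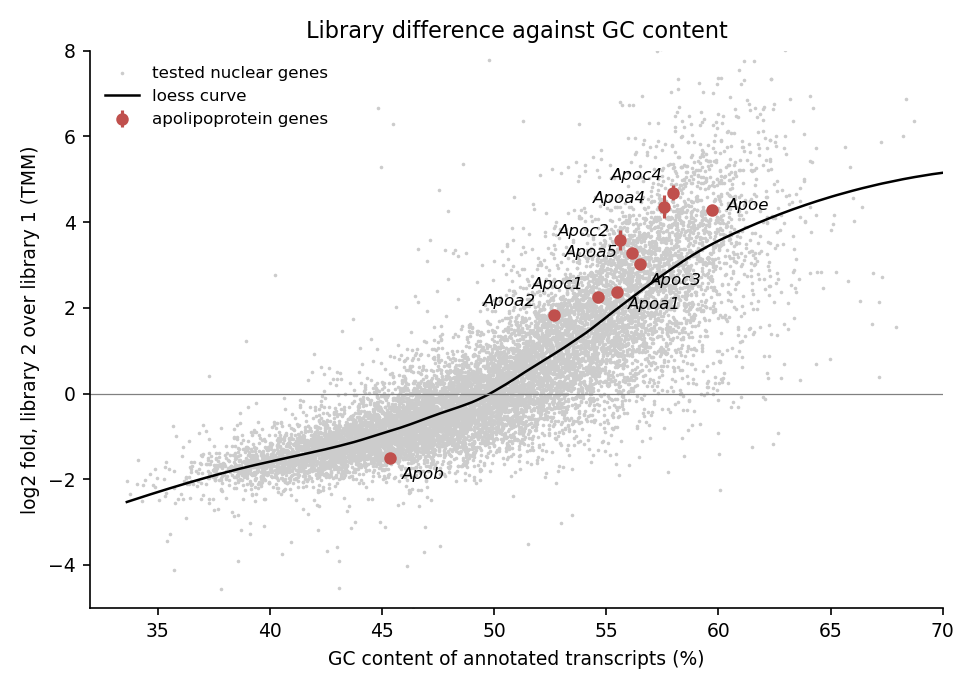
Log2 fold (TMM, library 2 over library 1) against transcript GC content for tested nuclear genes (grey) and the 10 apolipoprotein genes (red, with 95% counting intervals); the line is a loess curve, and 38 genes lie outside the axes. Apob lies at 45.4% GC and -1.50, and Apoe at 59.7% GC and 4.27.

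After subtraction of a loess curve of log2 fold on GC content, 4 members were past the fold upwards and none downwards, against 11.4% and 11.2% of 12679 genes. The remaining log2 folds were 1.75 for Apoc4, 1.56 for Apoa4, 1.54 for Apoc2 and 1.04 for Apoa5. These 4 were also the least abundant members by mean TPM and in library 1, while in library 2 Apob was below Apoc4. Apoa2 had 0.92, Apoe 0.79, Apoc3 0.64, Apoc1 0.62 and Apoa1 0.38, while Apob had -0.63. The value of Apob was taken at its mean GC of 45.4%, and the curve was not read at the 43.5% of Apob-202. The median of the members was then 0.85, with -0.01 over all genes.

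The coding sequences differ in the same way as the whole transcripts. Apoe had 62.6% GC over its coding region and 75.6% at the last base of its codons, and Apob had 43.4% and 47.4%. Of all 100-base windows of the main transcript, 51.5% exceeded 60% GC in Apoe, 31.0% in Apoa1 and 0.911% in Apob. The richest coding windows of Apoe and Apoa1 and the poorest of Apob are shown 5′ to 3′, with G and C in capitals, to let the contrast be seen; the letters are from the GENCODE M21 annotation on GRCm38.
Apoe, chr7:19696601-19696700, minus strand, 74 of 100 bases G or C: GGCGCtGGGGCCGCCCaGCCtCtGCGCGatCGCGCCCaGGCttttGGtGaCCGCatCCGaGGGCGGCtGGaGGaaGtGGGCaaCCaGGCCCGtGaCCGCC
Apoa1, chr9:46230010-46230109, plus strand, 69 of 100 bases G or C: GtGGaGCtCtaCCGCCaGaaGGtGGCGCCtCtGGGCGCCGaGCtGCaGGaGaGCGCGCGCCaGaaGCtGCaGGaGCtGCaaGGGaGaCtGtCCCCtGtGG
Apob, chr12:8008050-8008149, plus strand, 24 of 100 bases G or C: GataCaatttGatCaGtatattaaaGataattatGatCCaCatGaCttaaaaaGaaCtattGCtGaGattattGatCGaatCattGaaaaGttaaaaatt
Each is 1 of several overlapping windows with the same GC content, 10 in Apoe, 7 in Apoa1 and 6 in Apob.

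The poorest window of Apob starts at the site where its mRNA can be edited. A C-to-U change there turns a glutamine codon into a stop and gives the short form of apoB, which mouse liver is known to make along with the full-length form. The site is a CAA codon, number 2179 from the start codon, followed by the 11-base mooring sequence that guides the editing enzyme; both are in capitals. The mooring sequence occurs once in the transcript.
Apob editing site, chr12:8008050-8008069, plus strand, edited base 8008054: gataCAAttTGATCAGTATA
The 6 windows with the lowest GC content of 10734 within coding exons of Apob start between 8008050 and 8008056. The tables hold no base calls, so the extent of editing was not analysed here. The enzyme Apobec1 had 14.3 TPM in library 2 and 6.43 TPM in library 1. Its RNA-binding partners were A1cf, with 46.3 TPM in library 2 and 51.1 TPM in library 1, and Rbm47, with 14.9 TPM in library 2 and 10.0 TPM in library 1. Of these 3 genes none was past the fold upwards and 1, A1cf at -1.03, downwards, beside 33.0% and 24.0% of all tested genes. None was past it by total count, beside 42.1% upwards and 7.73% downwards of all tested genes. None was past it once the GC curve was subtracted, beside 11.4% and 11.2%.

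Of the 10 genes, 8 lie in clusters. On chromosome 7 of GRCm38 the minus-strand genes Apoe, Apoc1, Apoc4 and Apoc2 fill 19671579 to 19699188 (27610 bases). On chromosome 9, Apoa1, Apoc3, Apoa4 and Apoa5 fill 46228580 to 46271919 (43340 bases), with Apoc3 on the strand opposite to the others. In the chromosome 7 cluster, Apoe (ENSMUSG00000002985.11) spans 19696109 to 19699188, Apoc1 (ENSMUSG00000040564.9) spans 19689481 to 19692660, Apoc4 (ENSMUSG00000074336.4) spans 19678083 to 19681479 and Apoc2 (ENSMUSG00000002992.12) spans 19671579 to 19677941. In the chromosome 9 cluster, Apoa1 (ENSMUSG00000032083.8) spans 46228580 to 46230466, Apoc3 (ENSMUSG00000032081.5) spans 46232933 to 46235636, Apoa4 (ENSMUSG00000032080.6) spans 46240696 to 46243459 and Apoa5 (ENSMUSG00000032079.7) spans 46268633 to 46271919. Apoa2 (ENSMUSG00000005681.8) lies on chromosome 1 (171225054 to 171226379, plus strand) and Apob (ENSMUSG00000020609.10) on chromosome 12 (7977648 to 8016835, plus strand). Of all TPM, the chromosome 7 cluster held 3.77% in library 2 and 0.194% in library 1, and the chromosome 9 cluster 1.26% in library 2 and 0.136% in library 1. Log2 folds spanned 2.25 to 4.69 in the chromosome 7 cluster and 2.36 to 4.35 in the chromosome 9 cluster, and after the GC curve 0.62 to 1.75 and 0.38 to 1.56. All 8 members in the clusters were past the fold upwards before the curve. Of 8 genes that flank the clusters and are not apolipoproteins, 6 were past the fold upwards and 1 downwards (7 and none under total-count scaling), with a median log2 fold of 1.79. After the GC curve 1 was past it upwards and none downwards, with a median of -0.07. Of all tested genes, 33.0% were higher and 24.0% lower, with 42.1% and 7.73% under total-count scaling and 11.4% and 11.2% after the curve. Tomm40, next to Apoe, had 19.2 TPM in library 2 and 0.41 TPM in library 1 (log2 fold 4.47), and Pafah1b2 had 8.07 TPM in library 2 and 11.5 TPM in library 1 (-1.39). By mean TPM of the libraries the most abundant flanking genes were Zpr1, with 23.2 TPM in library 2 and 8.28 TPM in library 1, and Clptm1, with 24.8 TPM in library 2 and 3.20 TPM in library 1.

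Apoc4 and Apoc2 are separated by 141 bases on the same strand and are joined by readthrough transcripts, which the authors' annotation placed under Apoc2. Their counts are uncertain to the extent that reads were divided between them. Of the counts of Apoc2, the readthrough Gm44805-201 took 194 in library 2 and 1.90 in library 1. An antisense gene that overlaps Apoa4, Gm10680, had 0 counts in both libraries. Whether the counting used strand is not given in the sources used here.

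The transcript tables divide each gene's TPM among its isoforms as a percentage (IsoPct). Of the 35 transcripts, 32 had TPM above 0 in library 2 and 22 in library 1. Apoa4 and Apoc4 have a single annotated transcript. Of the other 8 members, Apoe, Apoa1 and Apoa2 had at least 1 transcript whose share differed by 20 points or more, and 8 transcripts did so in all. The background was again high, since 47.5% of 3520 genes with several transcripts passed the same threshold. These 3520 are not all such genes, because those below a floor of 10 TPM, averaged over the libraries, were left out.

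The leading isoform of Apoe differed between the libraries. Apoe-206, the longest form (1386 bases in the authors' tables), had 10.22% of the gene's TPM in library 2 and 98.35% in library 1. Apoe-202, a 728-base processed transcript with no annotated coding region, had 59.08% in library 2 and 0% in library 1. Apoe-209, of 1104 bases and protein-coding, had 29.07% in library 2 and 0% in library 1. The last 2 forms were therefore listed only in library 2. In library 1 the posterior mean of Apoe-202 was 0.12 TPM with an upper bound of 0.371, and that of Apoe-209 was 0.60 TPM with an upper bound of 1.86. An expected count of 0 is here an estimate from reads that fit several forms, not an observed absence. The posterior mean count in library 1 was 0.60 (SD 0.96) for Apoe-202 and 12.2 (SD 12.9) for Apoe-209, beside 10023 counts of Apoe. Apoe-202 lacks 386 bases of the last exon of Apoe-206 (chr7:19696338-19696723), which have 61.4% GC and hold the Apoe window printed above. It also lacks 136 bases at the 5′ end (65.4% GC) and 158 at the 3′ end (43.7% GC).

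The leading isoforms of Apoa1 and Apoa2 differed as well. Apoa1-201, the complete mRNA of 1035 bases, had 97.60% in library 2 and 25.00% in library 1. Apoa1-202, of 602 bases and marked as having an unknown 3′ end, had 2.40% in library 2 and 75.00% in library 1. The complete form thus led in library 2 and the incomplete one in library 1. Apoa1-202 retains a 201-base intron and lacks 493 bases of the last exon (chr9:46229974-46230466, 59.2% GC), among them the Apoa1 window printed above. For Apoa2, Apoa2-201 had 49.00% in library 2 and 19.90% in library 1, and Apoa2-204 had 48.47% in library 2 and 18.03% in library 1. Apoa2-202 had 0.70% in library 2 and 60.29% in library 1. It differs from Apoa2-201 by 16 extra bases and by the loss of 9 bases at the 5′ end and 41 at the 3′ end, the last with 39.0% GC. Isoform shares are estimates from reads that mostly fit several forms, and their error is not the counting error. The 8 transcripts past 20 points remained 8 with the deposited posterior means and 8 with shares of counts. Counted by gene, 3 of the 8 members with several transcripts passed on each of the 3 measures. Of the 3520 background genes 47.5% passed by IsoPct, 47.0% by posterior means and 38.1% by shares of counts. The share of members was thus not above the background on any measure.

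**Figure D4:**
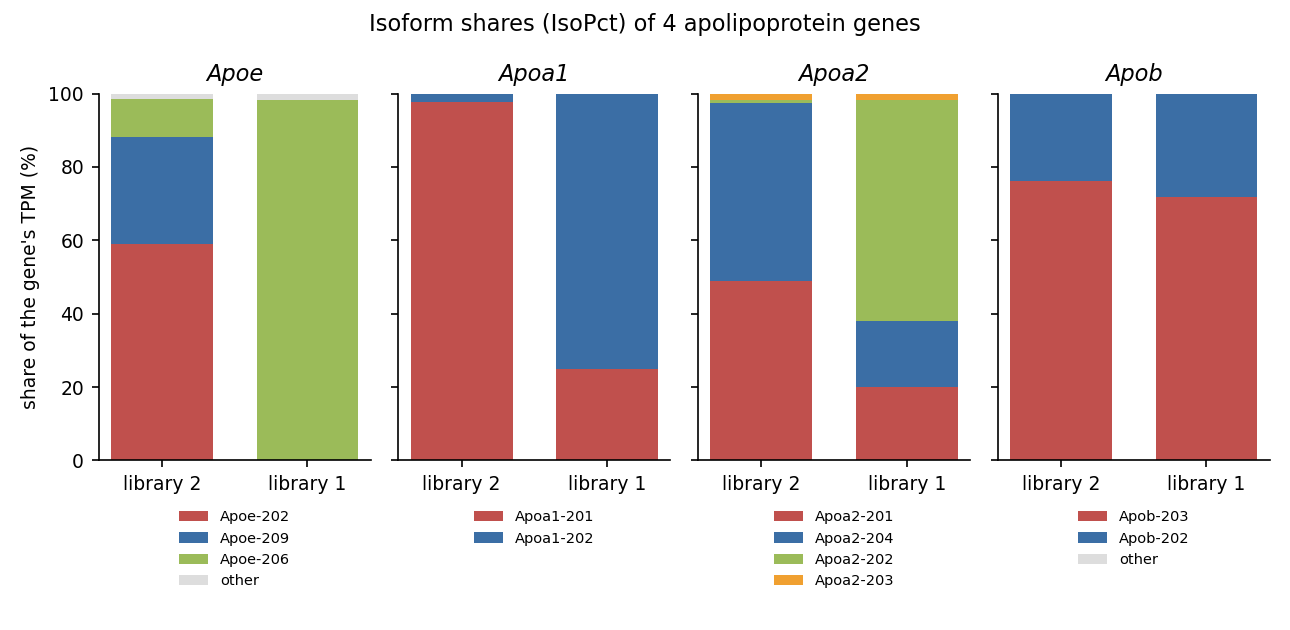
Share of each gene's TPM by transcript, in percent, for Apoe, Apoa1, Apoa2 and Apob, with library 2 as the left and library 1 as the right bar of each panel. The leading transcript of Apoe, Apoa1 and Apoa2 differs between the libraries, and that of Apob, at 76.24% in library 2 and 71.82% in library 1, does not.

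**Figure D5:**
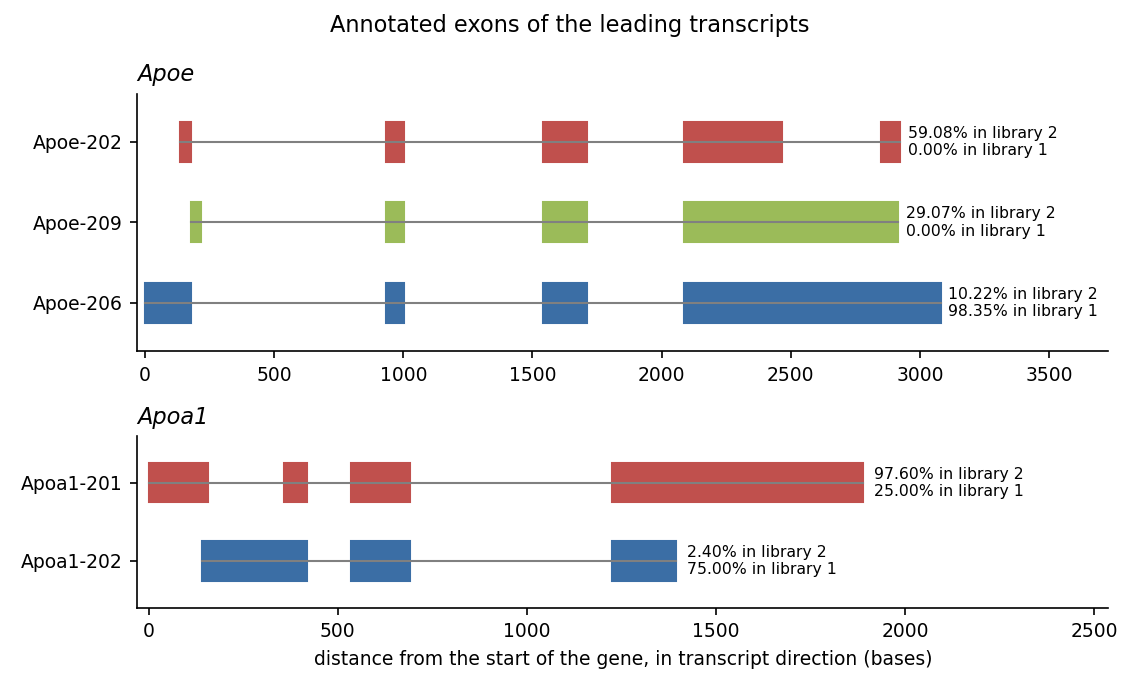
Annotated exons (boxes) and introns (lines) of the leading transcripts of Apoe and Apoa1, by distance in bases from the start of the gene, with the share of the gene's TPM in each library. Apoe-202 skips part of the last exon, and Apoa1-202 ends early in it and retains the first intron.

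In Apob the balance of isoforms was close in the 2 libraries. Apob-203 is an annotated 2174-base fragment without a known 5′ end that lies wholly within the last exons of the 13934-base Apob-202. It had 76.24% of TPM in library 2 and 71.82% in library 1, while Apob-202 had 23.70% in library 2 and 28.05% in library 1. By counts Apob-202 took 68.2% in library 2 and 72.7% in library 1. Expressed per kilobase, Apob-203 had 14862 counts in library 2 and 28623 in library 1, and Apob-202 had 4989 in library 2 and 12043 in library 1. The 3′ fragment was therefore denser than the full transcript in both libraries, with a TPM ratio of 3.22 in library 2 and 2.56 in library 1. Apob-203 lacks 790 bases (chr12:8015083-8015872) that the last exon of Apob-202 keeps, so reads across that junction fit Apob-203 and not Apob-202, while reads within a shared exon fit both forms.

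The remaining members kept 1 leading form in both libraries. Apoc1-201 had 98.67% in library 2 and 100% in library 1, with the rest in Apoc1-202 (1.33% in library 2). Apoc3-201 had 97.24% in library 2 and 94.39% in library 1, followed by Apoc3-203 with 2.54% in library 2 and 5.61% in library 1. Each of these differences was under the 20-point threshold. Apoa5-201 had 91.48% in library 2 and 89.47% in library 1, and Apoa5-202 had 8.52% in library 2 and 10.53% in library 1. Apoc2-201 had 87.68% in library 2 and 98.49% in library 1, and the readthrough Gm44805-201 had 10.08% in library 2 and 1.51% in library 1. With the deposited posterior means Apoc2-201 had 87.09% in library 2 and 86.94% in library 1, and Gm44805-201 had 10.16% in library 2 and 2.89% in library 1, so the difference in Apoc2-201 depended on the estimate.

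By annotated starts, nearly all Apoe TPM was assigned to forms that begin in the outermost first exons. The 6 transcripts that start between 19699008 and 19699188 held 99.0% of Apoe TPM in library 2 and 98.7% in library 1. Of the inner forms, Apoe-205, which starts at 19698407, had 199.7 TPM in library 2 and 4.65 TPM in library 1, and Apoe-207, which starts at 19698621, had 3.65 TPM in library 2 and 0 in library 1. RefSeq (GRCm38.p6) gives promoter windows, 250 bases before to 50 after the start, for the outer start, for that of Apoe-207 and for a start at 19698398 beside that of Apoe-205. Of the 6 outer forms only Apoe-206, with 10.22% of Apoe TPM in library 2 and 98.35% in library 1, starts inside the outer window. Apoe-202, which starts at 19699052, and Apoe-209, which starts at 19699008, begin outside it. The summed 99.0% and 98.7% therefore do not belong to that window alone. The windows are printed with TATAAA, the core of the TATA box, in capitals on either strand.
Apoe outer start, chr7:19699139-19699438, minus strand: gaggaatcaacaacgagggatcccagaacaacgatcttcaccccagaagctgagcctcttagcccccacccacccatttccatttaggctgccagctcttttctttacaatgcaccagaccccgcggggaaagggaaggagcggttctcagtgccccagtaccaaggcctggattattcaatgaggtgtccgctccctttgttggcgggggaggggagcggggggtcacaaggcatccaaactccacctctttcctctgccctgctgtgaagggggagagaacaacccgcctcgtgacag
Apoe start of Apoe-207, chr7:19698572-19698871, minus strand: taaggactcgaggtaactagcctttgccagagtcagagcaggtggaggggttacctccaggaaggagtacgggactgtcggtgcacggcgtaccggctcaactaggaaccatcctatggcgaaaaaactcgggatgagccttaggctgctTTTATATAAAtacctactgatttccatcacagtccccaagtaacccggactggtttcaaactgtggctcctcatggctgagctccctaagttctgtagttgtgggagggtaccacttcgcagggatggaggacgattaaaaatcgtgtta
Apoe start beside Apoe-205, chr7:19698349-19698648, minus strand: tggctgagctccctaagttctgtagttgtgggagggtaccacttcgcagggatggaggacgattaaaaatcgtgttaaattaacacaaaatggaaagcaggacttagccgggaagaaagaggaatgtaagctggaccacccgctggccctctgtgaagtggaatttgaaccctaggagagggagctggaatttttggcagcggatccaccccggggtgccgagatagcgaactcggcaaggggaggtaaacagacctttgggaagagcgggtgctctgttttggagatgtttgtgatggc
The outer window and that beside Apoe-205 hold no TATAAA. The window of Apoe-207 holds it 2 times, as overlapping copies on opposite strands. Among 32851 promoter windows of the same length, 13.6% hold TATAAA on either strand. Promoter windows were matched for 8 of the 10 members.

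For each member the nuclear protein-coding gene outside the family with the closest pair of levels was found, as the smallest Euclidean distance in log2(TPM + 0.1) over the 2 libraries. For Apob it was Mup19, a major urinary protein, at a distance of 0.10, with 1322 TPM in library 2 and 2014 TPM in library 1. For Apoc4 it was Hp, which encodes haptoglobin, at 0.46, with 1512 TPM in library 2 and 45.5 TPM in library 1. For Apoa5 it was the amino acid transporter gene Slc38a3 at 0.14, for Apoc2 the ribosomal protein gene Fau at 0.12 and for Apoa4 the mitochondrial ribosomal protein gene Mrpl12 at 0.15. The matches of Apob, Apoc2, Apoa5 and Apoa4 were the closest. The other members had more distant ones, namely Serpina1d at 0.62 for Apoa1, Ahsg at 0.76 for Apoc1, Ttr at 0.77 for Apoc3, Fabp1 at 1.10 for Apoa2 and Ttr at 2.53 for Apoe.

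The counts of the lists that follow stand beside 33.0% higher and 24.0% lower of all tested genes. Under total-count scaling these shares were 42.1% and 7.73%, and after the GC curve 11.4% and 11.2%. Of 17 genes listed under assembly and secretion of apoB particles, 7 were past the fold upwards, 4 downwards and 6 within it, with a median log2 fold of 0.83 (10 up and none down under total-count scaling). After the GC curve 3 were past it upwards and 1 downwards, with a median of -0.02. P4hb, the smaller subunit of the microsomal triglyceride transfer complex, had 639 TPM in library 2 and 195 TPM in library 1 (log2 fold 0.83, and -0.63 after the curve). Sar1b, a GTPase of the coat that carries these particles, had 203 TPM in library 2 and 234 TPM in library 1 (-1.10). Cideb, which acts on lipidation of the particle, had the highest log2 fold, 2.93, and Kif5b, a kinesin heavy chain, the lowest, -1.24.

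Of 13 tested other apolipoproteins, 5 were past the fold upwards and 3 downwards, with a median of 0.84 (7 and 2 under total-count scaling). With the curve subtracted 2 were higher and 1 lower, and the median was 0.38. Apoh had 1992 TPM in library 2 and 915 TPM in library 1 (log2 fold 0.23, and -0.83 after the curve). Clu, which encodes clusterin, had 766 TPM in library 2 and 333 TPM in library 1 (1.64). The extremes were Apol9a at 3.13 and Apoo, a protein of the mitochondrial inner membrane, at -1.65. Apod and Apold1 were under 1 TPM in both libraries.

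Of 10 genes of high-density lipoprotein assembly and remodelling, 4 were past the fold upwards and 3 downwards, with a median of 0.77 (7 and none under total-count scaling). Subtracting the curve left 1 higher and 1 lower, with a median of 0.32. The paraoxonase gene Pon1 had 1282 TPM in library 2 and 1740 TPM in library 1 (log2 fold -1.02, and 0.23 after the curve). Lcat, whose product esterifies cholesterol on the particle, had 406 TPM in library 2 and 41.7 TPM in library 1 (2.39). Pltp, the phospholipid transfer protein, was highest at 3.52. Abca1, which loads lipid onto apoA-I, was lowest at -1.38.

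Of 6 genes of lipoprotein lipase and its regulators, 4 were past the fold upwards and 2 downwards, with a median of 2.81 (4 and none under total-count scaling). After the GC curve 3 were higher and none lower, with a median of 0.98. Angptl8, a secreted regulator of the lipase made in the liver, had the highest log2 fold of the list, with 87.7 TPM in library 2 and 0.13 TPM in library 1. These rest on 915 counts in library 2 and 2 counts in library 1, which gives a log2 fold of 8.23 with an interval of 6.66 to 11.6.

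Of 14 tested receptors and uptake genes, 9 were past the fold upwards and 2 downwards, with a median of 1.89 (9 and 1 under total-count scaling). Once the curve was subtracted, 4 were higher and 2 lower, and the median was 0.11. Lrp1, a receptor for apoE-bearing remnants, had 230 TPM in library 2 and 11.7 TPM in library 1 (log2 fold 4.51). Sdc1, the heparan sulfate proteoglycan of remnant uptake, had 111 TPM in library 2 and 17.4 TPM in library 1 (1.70, reversed to -1.43 after the curve). The fatty acid transporter gene Cd36 was lowest, at -1.59, and had 0.20 after the curve. Lrp8 and Sorl1 were under 1 TPM in both libraries.

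Of 22 tested transcription regulators of apolipoprotein genes, 11 were past the fold upwards and 4 downwards, with a median of 0.95 (14 and 1 under total-count scaling). After the GC curve the balance turned, with 5 higher and 7 lower and a median of -0.52. Hnf4a, a nuclear receptor central to hepatic apolipoprotein expression, had 172 TPM in library 2 and 49.7 TPM in library 1 (log2 fold 0.90, reversed to -1.30 after the curve). Creb3l3, a membrane-bound factor of the fasting response, had 156 TPM in library 2 and 20.1 TPM in library 1 (1.98, and -0.44 after the curve). Esrra was highest at 7.77, with an interval of 5.81 to 13.6, on 394 counts in library 2 and 1 count in library 1. Nr2f2, a repressor of apolipoprotein promoters, was lowest at -1.62, and Nr2f1 was under 1 TPM in both libraries.

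The label of liver was checked against marker genes. All 7 hepatocyte markers were detected in both libraries and summed to 83636 TPM in library 2 and 37110 TPM in library 1. Among enterocyte markers Lct, Cdx2, Rbp2 and Alpi had 0 counts in both libraries, 6 of 7 were under 1 TPM in both, and the sum of 80.5 TPM in library 2 and 71.3 TPM in library 1 came almost wholly from Fabp2. Markers of Kupffer cells summed to 168 TPM in library 2 and 69.3 TPM in library 1, and those of sinusoidal endothelium to 103 TPM in library 2 and 30.1 TPM in library 1. Stellate cell markers summed to 169 TPM in library 2 and 189 TPM in library 1, in both mostly from Dcn. Bile duct markers summed to 63.2 TPM in library 2 and 47.8 TPM in library 1, in both mostly from Spp1. These sums therefore rest largely on a single gene each. The 5 erythrocyte markers summed to 2063 TPM in library 2 and 138 TPM in library 1, and all 5 were past the fold upwards, 4 of them also after the GC curve. Their part in the levels of the apolipoproteins was not tested. For a level in bulk tissue, fewer cells of a type and less RNA per cell cannot be told apart. The labels call these libraries technical replicates of the same animal. Whether both came from the same piece of tissue was not tested.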

How the data were processed

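PolyA mRNA of 1 mouse liver was sequenced in 2 technical libraries, which form 1 group. The authors deposited, for each library, gene and transcript tables on mm10 with annotation M4, per the labels and the notes deposited with the files. They hold expected counts (estimated reads, which the authors divided between transcripts), TPM and FPKM (normalized by the authors for effective length and depth) and IsoPct, the percent of a gene's TPM in each transcript; FPKM was not used. The aligner, the quantification tool and the strandedness were not given in the sources used here. Symbols, positions, GC content and sequences came from GENCODE M21 on GRCm38 (the same assembly), matched by gene or transcript identifier, and promoters from RefSeq. Annotated lengths differed from the deposited ones for some transcripts, among them Apoe-206 (1408 bases in M21, 1386 in the tables), Apoc4-201 (538 and 464) and Apoc1-201 (432 and 427). Gene GC is the unweighted mean over the gene's transcripts.

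Rounded expected counts of genes that reached 20 over both libraries were scaled by TMM, with factors of 1.22 for library 2 and 0.818 for library 1 (edgeR 4.0.16, R 4.3.3; prior count 0.5; Python 3.11.15 and pandas 2.3.3 otherwise). Intervals are exact binomial at 95%. A count test needs replicates on each side and was not possible, so the fold of 1 on the log2 scale stands in place of a test. Totals of 19525500 and 23309905 expected counts for libraries 2 and 1 limit the precision. The alternatives were total-count scaling, DESeq2 1.42.0 size factors, the ratio of TPM (pseudocount 0.1), TMM without mitochondrial genes, a loess curve on GC content (span 0.3), other thresholds, no minimum, a prior count of 5, TPM rebuilt on full length and leaving out a library.

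The members, lists and rules were chosen with earlier results of these data known. All 10 members are named; transcripts named are the leading 2 of each member and any that differed by 20 points. From each list the 2 genes highest by TPM, those with the highest and lowest log2 fold and those under 1 TPM in both libraries are named. A gene that this rule names is not reported here. Pcpe2 was not matched. Genes with fewer than 20 summed counts in a list were not tested.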

Additional observations from a re-analysis of the deposited data

How the results depend on the processing

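Of the members, 9 were past the fold upwards under total-count scaling, DESeq2 size factors, the ratio of TPM, TMM without mitochondrial genes, no minimum count and a threshold of 0.58, and 8 at a threshold of 2; after the GC curve 4 were. Apob was past it downwards under TMM; the count of lower members was 0 under total-count scaling, the ratio of TPM, the GC curve and a threshold of 2. Of all 12728 tested genes, 4197 (33.0%) were higher and 3056 (24.0%) lower. The higher count was 5026 at a threshold of 0.58, 2597 at a threshold of 2 and 4188 for TMM without mitochondrial genes. It was 5364 (42.1%) under total-count scaling, 5905 (46.4%) by the ratio of TPM and 4148 (32.6%) with DESeq2 size factors. After the GC curve it was 1451 (11.4% of 12679). With no minimum it was 6692, out of a larger number of genes that is not given here. The lower count was 4493 at a threshold of 0.58, 235 at a threshold of 2 and 3082 for TMM without mitochondrial genes. It was 984 (7.73%) under total-count scaling, 337 (2.65%) by the ratio of TPM and 3136 (24.6%) with DESeq2 size factors. After the GC curve it was 1414 (11.2%), and with no minimum 4563. The lipoprotein pathway genes are the lists above pooled, without the genes that flank the clusters and the cell type markers. Of these pathway genes, 40 were higher and 19 lower. The number tested is given with each list, and no pooled share was computed to set beside 33.0% and 24.0% of all tested genes. The higher count of pathway genes was 18 after the GC curve. Their lower count was 4 under total-count scaling, 0 by the ratio of TPM, 12 after the curve and 0 at a threshold of 2. The causes of these changes were not tested beyond what each setting does by construction. No member reversed its direction in any setting.

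The family's share of TPM was 3.92%, 5.85% of nuclear protein-coding TPM, 2.21% of counts and 3.53% on full length; with a library left out it ran from 0.822% to 7.01%. With a library left out, 5 to 8 of 10 members kept their rank, and 8 did on full length. No paired analysis was possible because there is a single group of 2 libraries. The number of libraries, 2 of 1 animal, limits every statement to technical spread, and the counts of Apoa4 (114) and Apoc2 (177) in library 1 give the widest intervals.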
